A study of Rattus norvegicus with 8 samples.

Results

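The genes described here are 44 that a dividing cell uses to copy its DNA and to separate the copies, followed in semicircular canal duct (SCCD) epithelium of the rat inner ear with and without the glucocorticoid dexamethasone. They were taken by name, 21 of DNA replication, 20 of mitosis, and the S-phase cyclins and kinase Ccne1, Ccna2 and Cdk2. The list was drawn up with earlier results of these data known, so the counts over it are a description. A probe set naming a single gene was found for 36 of the 44, among 10410 genes on the array, and where a gene had several probe sets the one with the strongest signal stood for it. The other 8, Gmnn, Rrm2, Cdk2, Ccna2, Kif11, Kif23, Prc1 and Nusap1, have no value here, and Rrm2 was matched only within a probe set that names several genes.

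The arrays were 4 from SCCD primary cultures treated with dexamethasone at 100 nM and 4 from untreated SCCD primary cultures, called control. Both groups came from canals of neonatal Wistar rats grown on permeable supports, and total RNA of each sample was amplified through a pair of in vitro transcription cycles before hybridisation to a rat Affymetrix array. The length of the dexamethasone exposure for the arrays is not given in the sources used here, nor is it said that the samples are separate cultures, so the p-values rest on a spread among samples that may be technical. In such bulk RNA, fewer cells of a type and less RNA per cell cannot be told apart, nor can a signal be assigned to the epithelial cells alone.

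As background, a cell that commits to divide first switches on cyclin E and the genes for DNA synthesis, many of them under E2F transcription factors. The MCM complex opens the double helix, primase and the polymerases copy it with the sliding clamp PCNA, and ribonucleotide reductase, thymidylate synthase and thymidine kinase supply the deoxynucleotides. Later, before mitosis, a separate wave of genes is transcribed, many through CHR elements and CCAAT boxes bound by MuvB complexes and by NF-Y. It includes cyclin B and its kinase Cdk1, the aurora and polo kinases, the spindle checkpoint and the anaphase-promoting complex activator Cdc20. Most cells of an adult epithelium are out of the cycle, whereas cells freshly placed in culture commonly divide.

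Signals are given in arbitrary units after each array was rescaled to a 2% trimmed mean of 500. As deposited, replicates 1 and 2 of both groups already stood at 500.1, while replicates 3 and 4 stood at 331 and 322 with dexamethasone and at 202 and 336 in control. The arrays therefore fall into a pair of sets that each hold both groups, and values within each set are given below. The beta-actin 3′ to 5′ ratio, a measure of RNA or amplification quality, was 6.17 to 8.07 on dexamethasone arrays and 8.10 to 13.7 on control arrays (p = 0.0286 in a two-sided exact permutation test, which cannot go lower with 4 against 4). The ratio of GAPDH did not separate the groups in the same way, at 2.14 to 3.18 with dexamethasone and 2.10 to 3.79 in control (exact permutation p = 0.971). The part of the actin difference in any result below was not tested beyond the fit that carries it as a covariate. The treatment itself was visible in Sgk1, a glucocorticoid-induced kinase, which averaged 3358 ± 409 with dexamethasone and 370.4 ± 67.2 in control (SD, n = 4 each).

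Of the epithelial markers, 12 of 12 with a probe set were above the 95th percentile of 70 probe sets for tissue-restricted genes (104 to 186 across arrays) on every array. Their summed signal was 54563 to 59323 with dexamethasone and 55027 to 69403 in control. The keratin gene Krt18 fell (log2 fold change -0.47, limma adjusted p = 0.03), 1 of 12 where 0.81% of all probe sets were called lower. Krt8 had a log2 fold change of -0.33 (limma adjusted p = 0.197, or 0.0393 once array set was blocked). Krt19 went the other way, at 0.31 (limma adjusted p = 0.279), and the median of the 12 was -0.004. The fibroblast genes tested had a median log2 fold change of 0.01, between -0.58 for Col1a2 and 0.27 for Postn. Col1a2 had a limma adjusted p of 0.261, or 0.0139 once array set was blocked. Vim was at 5013 to 6403 with dexamethasone and 4843 to 6748 in control. On every array 7 of 14 were above the level of the tissue-restricted genes, namely Col1a1, Col1a2, Col3a1, Postn, Vim, Fbln1 and Pcolce. Dcn, Lum, Pdgfra, Pdgfrb and Twist1 were above it on none. None of 11 macrophage and blood genes was above it on all arrays. Their sum was 1376 to 5009 with dexamethasone and 1080 to 1685 in control, with 3415 units of Lyz2 on dexamethasone replicate 1. Cd14 was at 379 to 782 with dexamethasone and 168 to 338 in control, without overlap (log2 fold change 0.96, limma adjusted p = 0.0809). The 5 tested had a median log2 fold change of 0.30, with Csf1r at -0.15 and Cd74 at -0.18, and 0 were called. Endothelial genes summed to 3022 to 3645 with dexamethasone and 1228 to 1508 in control with Kdr at 2528 to 3028 with dexamethasone and 492 to 844 in control, while Flt1 went the other way, at 19.3 to 85.8 with dexamethasone and 168 to 197 in control (limma adjusted p = 0.02), and Pecam1, Tie1, Vwf, Emcn and Eng were above the level on no array. Of 7 Schwann cell and neuron genes 1 exceeded it on all arrays, and of 3 melanocyte genes 0 did. Of 7 cartilage and bone genes 2 did, Col2a1 and Col9a1. That list summed to 2766 to 6688 with dexamethasone and 2271 to 6155 in control. Col9a1 had 4191, 3039, 1916 and 1648 units with dexamethasone, against 3782, 3070, 1393 and 1700 in control. Col2a1 had 2325, 1804, 1233 and 997, against 2126, 1842, 670 and 702. Both were higher in replicates 1 and 2 than in replicates 3 and 4 of both groups.

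The cell cycle genes were measured in these cultures. Of the 36, 31 exceeded the level of the tissue-restricted genes on all 8 arrays, Ccne1, Bub1b, Tyms and Aurka on 7, and Pola1 on 6. The array under the level was dexamethasone replicate 1, and for Pola1 also control replicate 1. On dexamethasone replicate 1 these genes had 134, 112, 143, 138 and 98.8 units, against a level of 177. Mean signals over all arrays were between 187.8 for the Bub1b and 3754 for the Pcna probe set, and signals of different probe sets do not rank the transcripts. All 36 passed the filter on dim probe sets, a mean signal of at least 100.

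With dexamethasone, 35 of the 36 genes had a lower mean than in control, and the exception was Rrm1, the large subunit of ribonucleotide reductase. The median log2 fold change, dexamethasone over control, was -0.40 over the 36 genes and -0.02 over all 10368 probe sets tested, of which 54.1% were below 0. With quantile normalization or median centring 35 genes were again lower, though Top2a did not pass with median centring (limma adjusted p = 0.128). Leaving the signals as deposited raised the median of all probe sets by 0.16 to 0.14, and then 30 genes were below 0, with a median of -0.23 over the 36, while Mcm4, Pcna, Rfc4, Rpa2 and Fen1 stood above 0 beside Rrm1. Single genes passed the test less often. Tk1, Cdc20 and Top2a fell with an adjusted p under 0.05 (limma, two-sided, Benjamini-Hochberg over all probe sets), 3 of 36 where 0.81% of probe sets were called lower, and 0 rose where 1.88% were called higher. At an unadjusted p under 0.05 there were 21 lower, beside 8.16% of all probe sets, and 1 higher, Rrm1, beside 7.96%. All 4 dexamethasone arrays lay below all 4 control arrays for 10 genes, namely Tk1, Cdc20, Top2a, Ccne1, Lig1, Ccnb1, Mad2l1, Mcm5, Bub1b and Prim1, beside 5.46% of all probe sets. The opposite order held for Rrm1 alone, beside 5.57%.

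**Figure D1:**
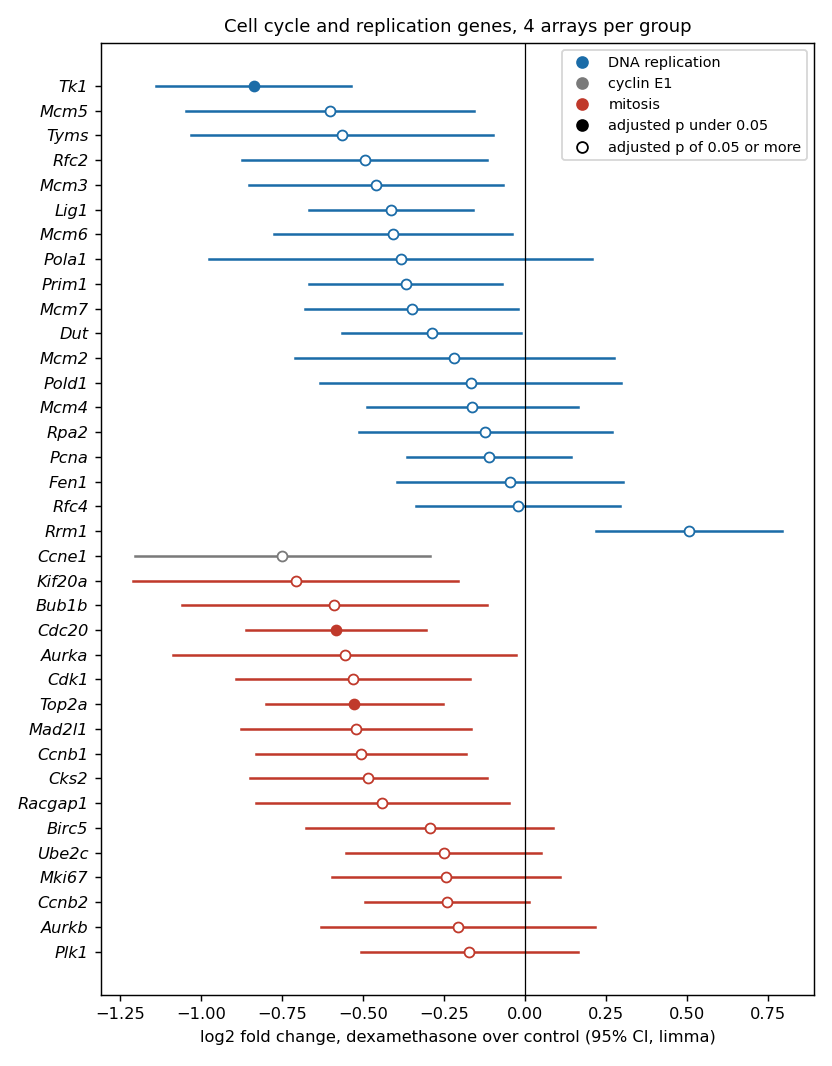
Log2 fold change of each gene, dexamethasone over control, with its 95% confidence interval from limma (n = 4 arrays per group), for replication genes, cyclin E1 and mitotic genes; filled points have an adjusted p under 0.05. Of the 36 points 35 lie left of 0, 3 are filled, and Rrm1 alone lies to the right.

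Both classes of gene were below control on median. The 16 mitotic genes had a median log2 fold change of -0.49, with values between -0.71 and -0.17, and all 16 were below 0. The 19 replication genes had a median of -0.35, with values between -0.84 and 0.51, and 18 were below 0. Without dexamethasone replicate 1 the replication median was -0.23, and with the signals as deposited it was -0.19. The range of the mitotic genes lies inside that of the replication genes, and no test was made of the difference in medians. At a 1.3-fold limit, 19 of the 36 genes were lower, beside 6.98% of all probe sets, and 10 of these were mitotic and 8 were replication genes. At that limit 1 gene was higher, beside 7.91%.

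The promoters of 6 of these genes are printed to show where motifs known from cell cycle promoters stand, or do not stand, in genes of the 2 classes. They are the 3 genes that fell, Rrm1 as the gene that went the other way, and Mcm5 and Cdk1 as an MCM subunit and the mitotic kinase. Each window holds 250 bases before and 50 bases after the start of the gene (RefSeq, GRCr8) and runs 5′ to 3′ on the strand of the gene. Capitals mark matches on either strand to 1 of 3 motifs. The CHR was searched as TTTGAA, with TTCGAA as its other form, and the NF-Y box as CCAAT. An E2F motif was either TTCCCGC, its variant with the letters TTCGCGC, the third form TTGCCGC or the fourth form TTGGCGC.
Tk1, chr10:103544728-103545027, minus strand: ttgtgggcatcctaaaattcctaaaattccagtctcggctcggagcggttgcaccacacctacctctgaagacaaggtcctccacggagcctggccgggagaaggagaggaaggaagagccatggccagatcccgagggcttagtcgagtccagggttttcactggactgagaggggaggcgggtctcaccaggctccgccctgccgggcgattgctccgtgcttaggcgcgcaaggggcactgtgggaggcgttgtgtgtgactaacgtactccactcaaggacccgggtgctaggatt
Cdc20, chr5:137255750-137256049, minus strand: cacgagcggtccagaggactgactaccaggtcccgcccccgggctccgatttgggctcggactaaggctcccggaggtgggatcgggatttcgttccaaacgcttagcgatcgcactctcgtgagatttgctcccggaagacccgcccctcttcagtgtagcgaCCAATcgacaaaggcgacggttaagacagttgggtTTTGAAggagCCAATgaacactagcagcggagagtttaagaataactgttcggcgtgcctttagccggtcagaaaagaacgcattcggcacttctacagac
Top2a, chr10:84473044-84473343, minus strand: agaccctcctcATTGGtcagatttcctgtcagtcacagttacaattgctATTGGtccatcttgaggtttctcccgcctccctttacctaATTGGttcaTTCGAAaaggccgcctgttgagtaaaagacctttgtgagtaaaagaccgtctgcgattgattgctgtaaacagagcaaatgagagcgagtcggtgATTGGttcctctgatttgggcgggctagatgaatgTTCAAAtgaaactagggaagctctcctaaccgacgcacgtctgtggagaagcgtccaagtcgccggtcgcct
Cdk1, chr20:19265043-19265342, plus strand: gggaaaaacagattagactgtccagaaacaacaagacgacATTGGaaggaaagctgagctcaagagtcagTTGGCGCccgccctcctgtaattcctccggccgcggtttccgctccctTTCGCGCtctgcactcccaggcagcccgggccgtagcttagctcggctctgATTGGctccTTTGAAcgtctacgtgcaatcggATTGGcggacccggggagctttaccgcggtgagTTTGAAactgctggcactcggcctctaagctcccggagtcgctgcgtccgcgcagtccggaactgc
Mcm5, chr19:13488563-13488862, plus strand: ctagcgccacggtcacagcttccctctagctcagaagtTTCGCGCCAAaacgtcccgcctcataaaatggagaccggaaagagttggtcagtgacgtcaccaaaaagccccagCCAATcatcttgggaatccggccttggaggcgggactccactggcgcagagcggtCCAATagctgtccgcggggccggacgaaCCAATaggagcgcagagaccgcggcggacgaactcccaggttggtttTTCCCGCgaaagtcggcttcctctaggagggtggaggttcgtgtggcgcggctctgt
Rrm1, chr1:166235654-166235953, plus strand: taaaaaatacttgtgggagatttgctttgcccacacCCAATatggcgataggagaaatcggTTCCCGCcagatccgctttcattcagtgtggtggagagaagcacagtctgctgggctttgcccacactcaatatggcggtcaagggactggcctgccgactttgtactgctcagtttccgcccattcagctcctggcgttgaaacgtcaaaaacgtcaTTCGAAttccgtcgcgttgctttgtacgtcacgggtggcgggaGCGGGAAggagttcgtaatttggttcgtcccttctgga

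In these windows the first base of the gene is counted as 1 and the base before it as -1, and a match is placed by its leftmost base. Cdc20 held a CHR at -51 between CCAAT boxes at -86 and -41, and Top2a held a CHR at -22 and -152 with 4 CCAAT boxes. The Cdk1 window held CHR matches at -72 and -16, CCAAT boxes at -210, -81 and -49 and E2F motifs at -180 and -132. Mcm5 had E2F matches at -212 and -209 that overlap in a single stretch, an E2F motif at -7, CCAAT boxes at -137, -82 and -54, and no CHR. Rrm1 held E2F motifs at -189 and 13, a CHR at -31 and a CCAAT box at -214. None of the 3 motifs was found in the window of Tk1, the gene that fell the furthest, which says only that these letters are not in this window.

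Over all 39 windows of 38 member genes the motifs divided the classes. An E2F motif was found in 16 of 20 windows of replication genes (80.0%), in 4 of 17 windows of mitotic genes (23.5%) and in 9.52% of 33469 windows of all genes. A CHR was found in 4 of 20 replication windows (20%), in 13 of 17 mitotic windows (76.5%) and in 19.7% of all windows. CCAAT was in 11 of 20 replication windows (55.0%), in 14 of 17 mitotic windows (82.4%) and in 37.5% of all. A CHR together with a CCAAT box stood in 11 mitotic windows (64.7%), in 2 replication windows and in 7.95% of all windows. An E2F motif overlapped a CCAAT box in 2 of the 39 windows, and a CHR overlapped one in 1. The glucocorticoid response element, searched only as the exact letters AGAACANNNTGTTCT, was found in 0 of 39 windows and in 5 of all 33469 (0.0149%). Letters so rare could hardly turn up in 39 windows, so nothing is drawn from the 0.

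Genes with each motif had medians nearer 0 than genes without it, a description with no test. Genes with an E2F motif had a median log2 fold change of -0.36 (18 genes), against -0.52 for those without one (14 genes). With a CHR the median was -0.32 (14 genes), against -0.44 without (18 genes), and with CCAAT it was -0.38 (20 genes), against -0.51 without (12 genes). A match is a description of letters, and no binding was measured.

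**Figure D2:**
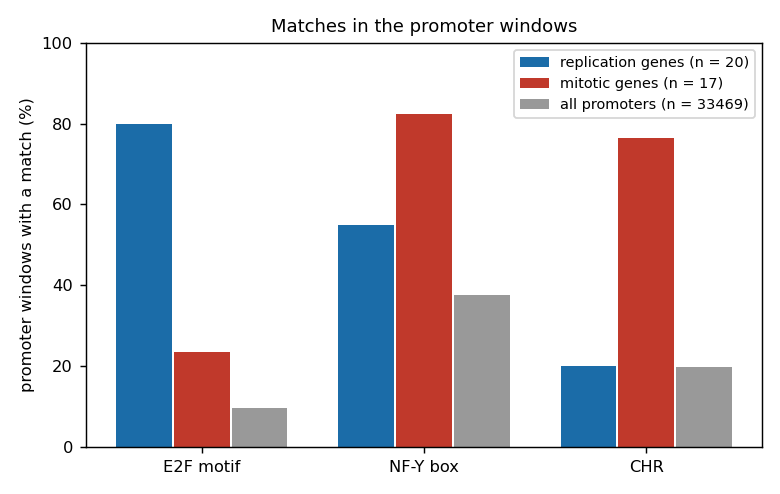
Percent of promoter windows with at least 1 match to an E2F motif, an NF-Y box or a CHR, for windows of replication genes, mitotic genes and all genes. E2F motifs stand in 80.0% of replication and 23.5% of mitotic windows, and CHR matches in 20% and 76.5%.

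Among the genes of deoxynucleotide supply, Tk1, thymidine kinase of S phase, had the largest fall of the 36 genes. Its signals were 394, 379, 456 and 445 on dexamethasone arrays 1 to 4, against 681, 845, 861 and 624 on control arrays 1 to 4. Every dexamethasone array lay well below every control array. The mean was 419 ± 37.7 with dexamethasone and 753 ± 118 in control (SD, n = 4 each), a log2 fold change of -0.84 ± 0.14 (SE, limma adjusted p = 0.00696). A second Tk1 probe set, in which the groups overlapped, gave -0.30 and did not pass (adjusted p = 0.511).

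Rrm1 went the other way. Its signals were 1407, 1458, 1872 and 1997 on dexamethasone arrays, against 1072, 1197, 1285 and 1145 on control arrays. All dexamethasone arrays were above all control arrays, and dexamethasone replicates 3 and 4 were highest. The log2 fold change was 0.51 ± 0.13 (SE) with an adjusted p of 0.0684 in limma, or 0.0172 once array set was blocked. Tyms, thymidylate synthase, which makes the thymidine nucleotide from deoxyuridine monophosphate, averaged 198 ± 47.5 with dexamethasone and 292 ± 59.6 in control. Dut, which breaks down dUTP, averaged 1772 ± 242 with dexamethasone and 2163 ± 293 in control. Neither passed the test (adjusted p = 0.216 and 0.288 in limma).

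The 6 subunits of the MCM helicase were all below control, with log2 fold changes between -0.60 and -0.16 and a median of -0.38, and 0 of 6 passed the test, with 4 of 6 lower at an unadjusted p under 0.05 (limma), beside 0.81% and 8.16% of all probe sets. Mcm5 was the furthest from control. Its signals were 291, 362, 386 and 362 on dexamethasone arrays, against 415, 616, 765 and 399 on control arrays. The groups did not overlap, but control replicates 1 and 4 were close to the dexamethasone arrays while control replicates 2 and 3 were well above them (log2 fold change -0.60 ± 0.20, SE, limma adjusted p = 0.164). Mcm2 signals were 447, 679, 843 and 985 with dexamethasone, against 635, 839, 1025 and 844 in control. Here the groups overlapped widely, dexamethasone replicate 1 was lowest, and the log2 fold change of -0.22 ± 0.22 was no larger than its error (limma adjusted p = 0.696). Without dexamethasone replicate 1 the Mcm2 value was 0.0036.

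The polymerases, clamp, clamp loaders, ligase and their partners were also all below control over the 8 arrays, though not in every setting. Their 9 log2 fold changes were between -0.49 for Rfc2, a clamp loader subunit, and -0.02 for Rfc4, another, with a median of -0.17, and 0 of 9 passed the test, with 3 of 9 lower at an unadjusted p under 0.05 (limma), beside the same 0.81% and 8.16%. Lig1, the ligase that joins Okazaki fragments, had 511, 521, 492 and 519.8 units with dexamethasone, against 663, 686, 786 and 599 in control. The dexamethasone arrays were nearly equal and all below control (log2 fold change -0.41 ± 0.12, SE, limma adjusted p = 0.0917). Pcna, the sliding clamp, had 3162, 3382, 3464 and 4473 units with dexamethasone, against 3588, 4300.1, 4040.1 and 3626 in control. Dexamethasone replicate 4 was the highest of the 8 arrays, and the groups overlapped (log2 fold change -0.11 ± 0.12, adjusted p = 0.696). Fen1, the flap nuclease, Rpa2 of the single-strand binding complex, and Pold1 of polymerase delta had log2 fold changes of -0.05, -0.12 and -0.17, with adjusted p between 0.758 and 0.926 in limma. Without control replicate 3, Pold1 and Fen1 were above 0. The median of signal ratios also put them above 0, at 0.07 for Pold1 and 0.04 for Fen1.

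Cyclin E1 (Ccne1), which drives entry into S phase, had 134, 217, 233 and 169 units with dexamethasone, against 262, 272, 412 and 311 in control. The groups did not overlap, and dexamethasone replicate 1 was lowest. The log2 fold change was -0.75 ± 0.21 (SE, limma adjusted p = 0.0866, or 0.0413 once array set was blocked).

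Among the mitotic genes, Cdc20 and Top2a fell. Cdc20, which activates the anaphase-promoting complex, had 688, 687, 715 and 657 units with dexamethasone, against 1012, 1166, 1151 and 825 in control. The dexamethasone arrays were almost level, and control replicate 4 was the lowest control. The mean was 687 ± 23.7 with dexamethasone and 1038 ± 158 in control, a log2 fold change of -0.58 ± 0.13 (SE, limma adjusted p = 0.0316). A second Cdc20 probe set gave -0.73 (adjusted p = 0.0317), and 3 dimmer ones did not pass or were not tested.

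Top2a, the topoisomerase that untangles sister chromosomes, had 562, 668, 658 and 706 units with dexamethasone, against 849, 1111, 915 and 870.1 in control. Every dexamethasone array was below every control array. The mean was 649 ± 61.2 with dexamethasone and 936 ± 119.8 in control, a log2 fold change of -0.53 ± 0.13 (SE, limma adjusted p = 0.0488). Its second probe set gave -0.59, which did not pass (adjusted p = 0.127).

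Cyclin B1 and its kinase were shifted by similar amounts without passing the test. Ccnb1 had 579, 579, 770.4 and 782 units with dexamethasone, against 840.2, 1104, 1047 and 846 in control. The groups did not overlap, and dexamethasone replicates 3 and 4 came closest to control (log2 fold change -0.51 ± 0.15, SE, limma adjusted p = 0.104). Cdk1, the kinase of mitotic entry, had 869, 1075, 1203 and 1407 units with dexamethasone, against 1373, 1763, 2011 and 1417 in control. Dexamethasone replicate 4 lay within the control range (log2 fold change -0.53 ± 0.17, limma adjusted p = 0.127). Cks2, a small partner of the cyclin-dependent kinases, had 949.7, 948, 1026 and 1075 units with dexamethasone, against 1254, 1717, 1753 and 1005 in control. Control replicate 4 was below dexamethasone replicates 3 and 4, and the other controls were above all dexamethasone arrays (log2 fold change -0.48 ± 0.17, adjusted p = 0.173).

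**Figure D3:**
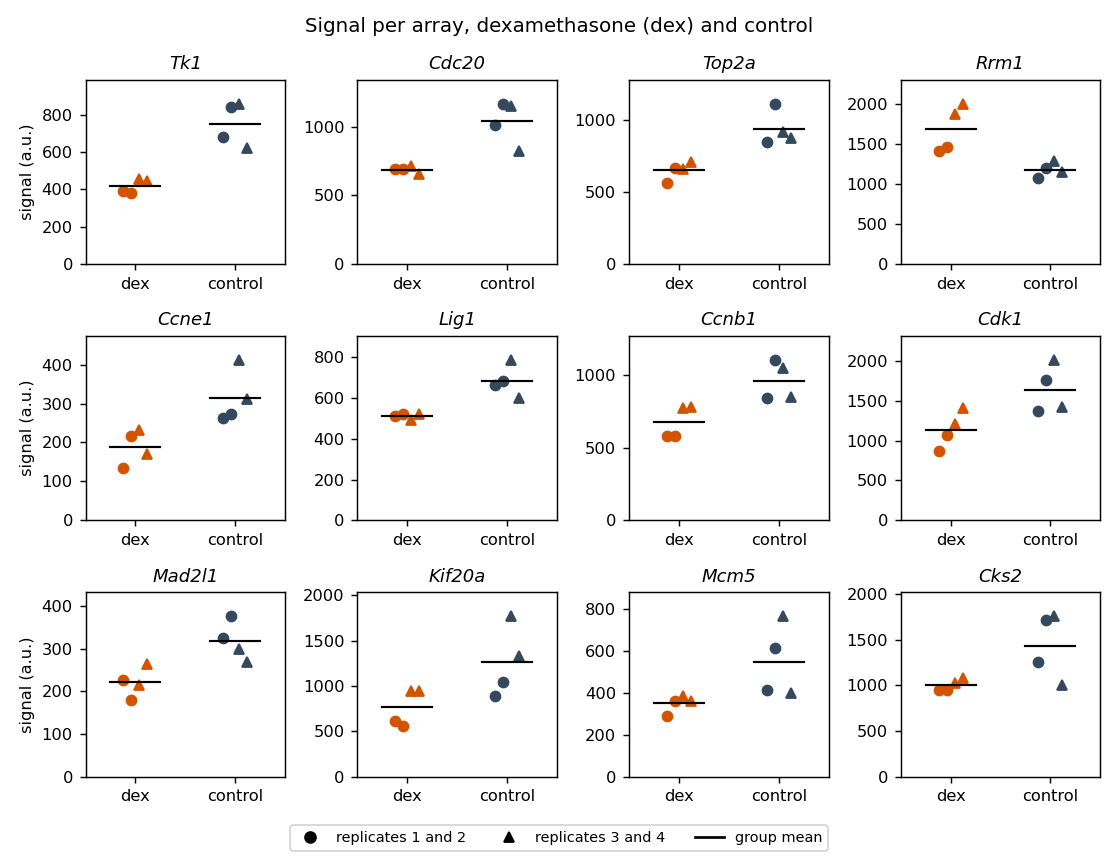
Signal in arbitrary units, rescaled per array, for the 12 genes with the smallest p, with dexamethasone left of control. Circles are replicates 1 and 2, triangles replicates 3 and 4, and lines the group means of 4 arrays. The dexamethasone points of Tk1, Cdc20 and Top2a all lie below the control points, and those of Rrm1 above.

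Of the spindle genes, Kif20a, a kinesin of the dividing cell's midzone, had 616, 561, 946 and 949 units with dexamethasone, against 895, 1041, 1768 and 1335 in control. Both groups were higher in replicates 3 and 4 than in replicates 1 and 2, and dexamethasone was below control within each set. The log2 fold change was -0.71 ± 0.23 (SE, limma adjusted p = 0.146) over all arrays. Blocking on array set gave an adjusted p of 0.00428. Mad2l1 of the spindle checkpoint had 228, 180.4, 215 and 264 units with dexamethasone, against 326, 376, 301 and 269 in control. The groups were separated only narrowly, by 264 against 269 (log2 fold change -0.52 ± 0.16, limma adjusted p = 0.127).

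Mki67, the common marker of proliferating cells, had 665, 1112, 1092 and 1056 units with dexamethasone, against 1068, 1189, 1228 and 1074 in control. Dexamethasone replicate 1 stood apart, and the other 3 dexamethasone arrays were at the low end of control. The log2 fold change was -0.24 ± 0.16 with a 95% confidence interval between -0.59 and 0.11 (limma adjusted p = 0.509). The kinases Plk1 and Aurkb had log2 fold changes of -0.17 and -0.21, and Aurka one of -0.56, none of which passed the test. Ccnb2 (-0.24), Ube2c (-0.25), the survivin gene Birc5 (-0.29), Racgap1 (-0.44) and the checkpoint kinase Bub1b (-0.59) did not pass either, with adjusted p between 0.197 and 0.461.

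The arrays did not contribute equally to the difference. Dexamethasone replicate 1 was the lowest of all 8 arrays for 21 of the 36 genes and dexamethasone replicate 2 for 10, and control replicate 3 was the highest for 21 and control replicate 2 for 12. Relative to each gene's control mean, the mitotic median on the log2 scale was -0.65, -0.55, -0.33 and -0.21 on dexamethasone arrays 1 to 4, against -0.15, 0.22, 0.18 and -0.16 on control arrays 1 to 4. The replication median was -0.44, -0.37, -0.17 and -0.17 with dexamethasone, against -0.18, 0.10, 0.21 and -0.16 in control. The mitotic medians of the groups did not overlap, while the replication median of control replicate 1 was level with that of dexamethasone replicates 3 and 4. Control replicate 3, one of the 2 highest control arrays for both medians, was also the array with the highest beta-actin ratio and the lowest deposited signal.

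**Figure D4:**
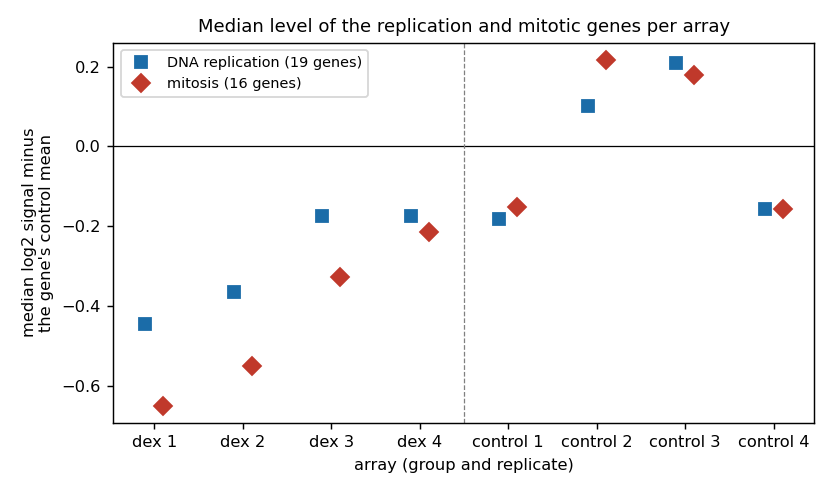
Median over 19 replication genes and 16 mitotic genes of the log2 signal minus the gene's control mean, for each array, dexamethasone left of control. Dexamethasone replicates 1 and 2 are lowest, and replication values of dexamethasone replicates 3 and 4 (both -0.17) lie beside control replicates 1 (-0.18) and 4 (-0.16).

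Within array sets the difference was larger in replicates 1 and 2. There the median of the 36 genes was -0.54, with 35 below 0 beside 50.5% of all probe sets, and 6 were lower past the threshold (Tk1, Cdk1, Ccnb1, Cdc20, Kif20a and Racgap1) beside 1.49% of all, while 0 were higher beside 2.76%. In replicates 3 and 4 the median was -0.27, with 31 below 0 beside 56% of all probe sets, and 0 were called beside 0.0193% called lower. Pcna, Rfc4, Rpa2 and Aurkb were above 0 in that set, as was Rrm1. In replicates 1 and 2 the mitotic median was -0.64 and the replication median -0.41, while in replicates 3 and 4 both were -0.27. The gap between the class medians was thus present in 1 set and absent in the other. Tk1 (-0.97 and -0.70), Cdc20 (-0.66 and -0.51) and Kif20a (-0.72 and -0.70) were below control in both, and 31 genes were below 0 in both sets. Whether the sets differ in the response was not tested.

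**Figure D5:**
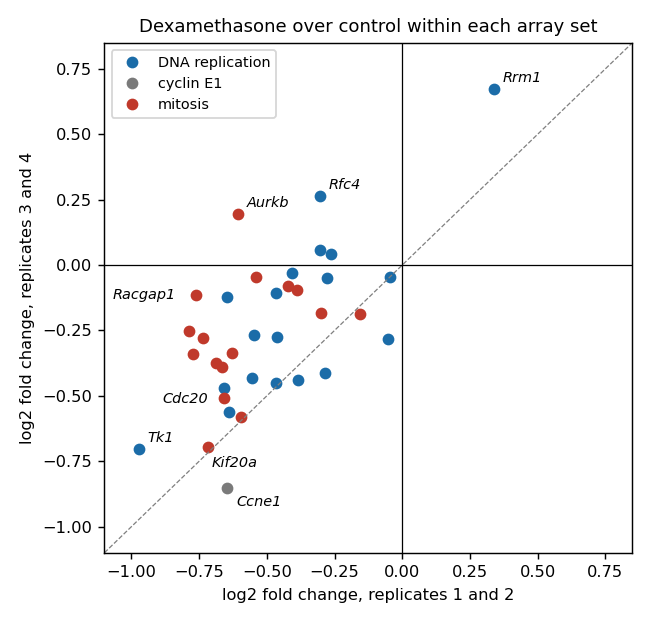
Log2 fold change of each gene, dexamethasone over control, in replicates 1 and 2 on the horizontal axis and in replicates 3 and 4 on the vertical axis, with 2 arrays per group in each. Most points lie above the dashed line of equal change and left of 0; Rrm1 is above 0 in both sets, and Pcna, Rfc4, Rpa2 and Aurkb only in replicates 3 and 4.

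With array set as a block in limma, 6 genes were lower (Tk1, Cdc20, Top2a, Ccne1, Kif20a and Rfc2) beside 2.26% of all probe sets, and 1, Rrm1, was higher beside 3.32%. With the beta-actin ratio as a covariate, 0 of the 36 were called, beside 65 of all 10368 probe sets in either direction. Under this covariate 32 of the 36 were below 0 (not Rrm1, Pold1, Fen1 and Plk1) and their median was -0.31. The beta-actin ratio does not overlap between the groups, so its effect and that of the treatment cannot be told apart. When each of the 8 arrays was left out in turn, 33 to 35 of the 36 genes were below 0, and Tk1 was called each time. Cdc20 was called only without control replicate 4 (limma adjusted p = 0.0105) and had an adjusted p of 0.0575 to 0.103 without any other array. Top2a was called under none of the 8 (limma adjusted p between 0.0669 and 0.133).

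Other genes of the cycle, from lists of 153 names also drawn up with earlier results known, gave 77 tested genes. Of these, 61 were below 0, beside 54.1% of all probe sets, and 1 fell, beside 0.81%. This was Chaf1a, the large subunit of the chromatin assembly factor that loads histones on new DNA. Chaf1a had 132, 176, 243 and 240.3 units with dexamethasone, against 325, 396, 498 and 309.8 in control, so that no dexamethasone array reached the lowest control. Its log2 fold change was -0.97 ± 0.22 (SE, limma adjusted p = 0.0409). With quantile normalization or median centring it did not pass (limma adjusted p = 0.0632 and 0.0668). The 26 other replication genes had a median of -0.22, with 5 lower at an unadjusted p under 0.05, beside 8.16% of all probe sets. The 36 other mitotic genes had a median of -0.29, with 17 lower at that limit. The 15 other regulators, among them E2f4, E2f5, E2f6, E2f8, the retinoblastoma proteins Rb1 and Rbl2 and the MuvB subunit Lin37, had a median of 0.07 with 6 below 0 and 1 lower at that limit. With array set as a block, 8 of the 77 were lower, beside 2.26% of all probe sets. These were Chaf1a, Rfc3, Kif2c, Cdca3, Asf1b, Bub3, Melk and Spc25.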

How the data were processed

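Total RNA of 4 dexamethasone-treated and 4 untreated SCCD samples was labelled through a small-sample protocol and hybridised to rat Affymetrix arrays. The authors deposited a table of signal intensity per probe set, scaled per the labels to a target of 500. The 2% trimmed mean was at that target on 4 arrays only, so each array was rescaled to 500. Values under 16 were set to 16 and log2 taken, and the 10368 probe sets averaging 100 or more were kept. Groups were compared with lmFit and eBayes (mean-variance trend) in limma 3.58.1 under R 4.3.3, two-sided, with Benjamini-Hochberg adjustment over all of them and a threshold of 0.05. Single ratios were compared with exact permutation tests. The number of arrays limits the precision.

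Symbols came from the platform annotation, updated to current RefSeq symbols, and promoter windows from RefSeq (GRCr8). The strongest probe set stood for a gene. The members and lists were chosen with earlier results of these data known. Per-array values are given for members past the threshold, then for members of smallest p up to 12, and for Mki67, Pcna, Mcm2, Top2a, Cdk1 and Ccnb1. Of the other cell cycle genes those past the threshold are given. The fit was tested on simulated data. Alternatives were the deposited scaling, median centring, quantile normalization, other floors, a robust fit, the median of signal ratios, other filters, no trend, a block of replicate number or array set, each array set alone, the beta-actin ratio as a covariate, the mean of a gene's probe sets and leaving out each array.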

Additional observations from a re-analysis of the deposited data

Results flagged for a closer look

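In 4 of the 72 gene and group combinations examined, 1 array stood apart from the other 3 of its group, and chance alone flags about 1 in 20 such groups. Dexamethasone replicate 1 was the low array for Mki67, at 665 units against 1056 to 1112 on the other dexamethasone arrays. It was also low for Ube2c, the ubiquitin-conjugating enzyme of the anaphase-promoting complex, at 461 units against 581 to 605. Pold1, the catalytic subunit of polymerase delta, had 410.2 units on control replicate 3, against 221 to 226 on the other control arrays. Tyms had 203 units on control replicate 1, against 314 to 332 on the other controls.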

How the results depend on the processing

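The count of members that fell was 3 as reported, beside 84 of all 10368 probe sets. It was 0 with the signals as deposited, where 4 probe sets in all fell. With the beta-actin ratio as a covariate it was 0, where 65 of all were called in either direction, against 279 as reported. It was also 0 with the mean of a gene's probe sets, and in replicates 3 and 4 alone, where 2 of all fell. It was 1 with no filter on dim probe sets and 1 with no mean-variance trend. Median centring gave 2, where 73 of all fell and Top2a lost its call. The count was 6 in replicates 1 and 2 alone (1.49% of all) and 1 to 3 with single arrays left out (180 to 275 called in all). With array set as a block 6 members fell and 1 rose, beside 2.26% and 3.32% of all. The labels do not say whether replicate numbers pair the samples, and the values left it undecided, so they were not treated as pairs. Same-numbered samples correlated at 0.35, 0.25, 0.035 and 0.41 in their deviations from the group means. Dexamethasone replicate 2 correlated best with control replicate 1 (0.33), and dexamethasone replicate 3 with control replicate 4 (0.43). The replicate block called 484 of all 10368 probe sets in either direction. With it 5 members fell, 1 rose and 4 of the other cell cycle genes fell. That last count, 1 as reported for Chaf1a, was 0 with signals as deposited, median centring, no filter, no trend, replicates 3 and 4 alone or the actin covariate. It was 2 with a filter at 250 or the mean of probe sets, 8 with the array set block and 5 in replicates 1 and 2 alone, where 1 rose, and 0 to 3 with single arrays left out, with 0 without dexamethasone replicate 1 or 2 or control replicate 2 or 3. With quantile normalization 1 gene was called, but it was not Chaf1a. The mitotic median was -0.27 in replicates 3 and 4 alone and -0.33 with signals as deposited. The replication median was -0.19 with signals as deposited and between -0.42 and -0.23 with single arrays left out, nearest 0 without dexamethasone replicate 1. Pcna turned to 0.051 with signals as deposited and 0.040 in replicates 3 and 4, and with single arrays left out Mcm2 ranged between -0.38 and 0.0036, the highest value without dexamethasone replicate 1. The causes were not tested. For the single genes given array by array, 310 values kept direction and side of the threshold, 45 lost the call, 10 gained one and 3 reversed. Only Tk1, Cdc20, Top2a and Chaf1a had a call to lose, so the 45 losses all fell on these genes. The 310 include genes that stayed without a call.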
